A study of Mus musculus with 18 samples.

Results

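The guanylate-binding proteins (GBPs) are large GTPases encoded by a mouse gene family, of which 10 members were followed here: Gbp2, Gbp3, Gbp4, Gbp5, Gbp6, Gbp7, Gbp8, Gbp9, Gbp10 and Gbp11. They were taken by name, as 10 of the 22612 lines of a table of EO771 tumour cells and 10 of the 55401 lines of a table of sorted endothelial cells. The study sequenced 18 mouse libraries, 3 in each of 6 groups. In 12 libraries the cells came from wild-type C57BL/6 mice and were sorted as CD45- CD31 high endothelium, then split by PNAd, the sugar ligand of high endothelial venules. BECs are the PNAd- blood vessel endothelial cells, from the fat pad of mice without tumours (BEC normal) or from the primary tumour that EO771 cells formed there (BEC tumour). HECs are the PNAd+ high endothelial cells of the venules through which lymphocytes enter lymph nodes, from lymph nodes of mice without tumours (HEC normal) or from nodes that the labels call lymph node metastases (HEC tumour). The last 6 libraries came from EO771, a breast cancer line of mouse grown in culture, and were treated with vehicle or with 12-HETE, the product that ALOX12 makes from arachidonic acid. The mice were 5 to 6 weeks old when obtained. Whether cells of several mice were pooled was not given in the sources used here, and nothing ties equal replicate numbers to a shared mouse. The p-values measure only the spread between these samples, which may be technical.

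GBPs are among the genes most strongly induced by interferon-γ, and type I interferons induce them too. They belong to the dynamin superfamily, assemble on the membranes of vacuoles that hold pathogens and on bacteria in the cytosol, and help to break these open and to activate inflammasomes. In mouse, Gbp2 and Gbp5 carry a lipid anchor at the C terminus, which the enzymes of protein prenylation attach, and Gbp5 is also known for its part in inflammasome assembly. Gbp7 has been tied to autophagy and to assembly of the phagocyte oxidase. The immunity-related GTPases (IRGs), a second interferon-induced family, work beside the GBPs on pathogen vacuoles.

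In HECs of nodes from tumour-bearing mice, 6 of the 9 members that could be tested were lower than in HECs of normal nodes. The falls ran from 2.75-fold for Gbp3 to 11-fold for Gbp10, and 3.21% of all genes tested were called lower. In BECs of tumours, Gbp3, Gbp4 and Gbp9 were lower while Gbp5 and Gbp8 were higher than in BECs of the normal fat pad. Of all genes, 10.8% were called lower and 12.4% higher there. In EO771 cells given 12-HETE, 7 of the 8 members tested were lower, against 7.79% of all genes. Gbp4 was 12.1-fold lower and the other 6 fell by more, whereas Gbp3, the most abundant member, showed no detectable difference.

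The members lie in 2 clusters of the GRCm38 genome. On chromosome 3, forward strand, Gbp5 (ENSMUSG00000105504) runs from chr3:142493978-142522344, Gbp7 (ENSMUSG00000040253) from chr3:142530342-142550149, Gbp3 (ENSMUSG00000028268) from chr3:142560026-142573209 and Gbp2 (ENSMUSG00000028270) from chr3:142620602-142638008. Between Gbp3 and Gbp2 lies Gbp2b, a family gene that is not among the 10. On chromosome 5, reverse strand, Gbp8 (ENSMUSG00000034438) runs from chr5:105014150-105139540, Gbp9 (ENSMUSG00000029298) from chr5:105077630-105139539 and Gbp4 (ENSMUSG00000079363) from chr5:105115767-105139586. The cluster goes on with Gbp10 (ENSMUSG00000105096) at chr5:105215699-105239533, Gbp6 (ENSMUSG00000104713) at chr5:105270702-105293698 and Gbp11 (ENSMUSG00000092021) at chr5:105323042-105346472. The annotation lists Gbp11 as a polymorphic pseudogene and the other members as protein coding.

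Interferons act on promoters through the ISRE, bound by a complex that holds STAT2 and IRF9 or by IRF proteins, and the GAS element, which answers to interferon-γ. The table of RefSeq promoters (GRCm38.p6, 250 bases before to 50 after each start) held 4 members, Gbp2, Gbp3, Gbp5 and Gbp7. Both strands were searched for the ISRE core TTTCNNTTTC, which 3.44% of all 32851 windows hold, and for the GAS core TTCNNNGAA, which reads the same on both strands and which 8.3% hold. The ISRE core was found upstream of a RefSeq start in all 4 members, with Gbp3 holding it at the first of its 2 listed starts and not at the other. The first base of the core lay 165 bases before the RefSeq start in Gbp5, 53 in Gbp7, 45 in Gbp3 and 59 in Gbp2. RefSeq starts differ from those of the gene models above, so the cores shown for Gbp5 and Gbp2 lie inside the spans given there. The matches are shown because these 4 promoters share the core while Gbp3 differed from the other 3 genes in EO771 cells. Capitals mark the core, and each match is on the forward strand.
Gbp5 ISRE core, chr3:142496759-142496788: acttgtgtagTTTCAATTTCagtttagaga
Gbp7 ISRE core, chr3:142530273-142530302: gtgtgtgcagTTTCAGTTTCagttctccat
Gbp3 ISRE core, chr3:142559989-142560018: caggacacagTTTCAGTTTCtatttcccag
Gbp2 ISRE core, chr3:142620594-142620623: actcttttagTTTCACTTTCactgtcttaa

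Gbp3 held a second ISRE core 6 bases further on, overlapping the match shown. The GAS core was found in Gbp5 and Gbp7, each with 2 matches, and not in the windows of Gbp2 and Gbp3. The match closest to the start in each is shown because these windows hold both cores, and capitals again mark the core.
Gbp5 GAS core, chr3:142496872-142496900: tggccgttatTTCTCAGAAccaagcacag
Gbp7 GAS core, chr3:142530239-142530267: aagcagaagcTTCTCAGAAagtcagcaca
A match is a description of these letters and does not show that a factor binds there, and a window without a match says nothing about the factor.

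Family members resemble each other, so reads can be split between them. Of all 100-base stretches of their annotated exons, Gbp10 shared 73.5% and Gbp6 64.5% with another gene, mostly with each other and with Gm43302, a predicted gene whose exons overlap both. Gbp7 shared 10%, mostly with Gm43802, and the other 7 members shared at most 5.1%. How the authors counted reads that fit several places, and whether they used the strand, was not given in the sources used here. The values of Gbp6 and Gbp10 are therefore uncertain one against the other, and both are also given summed with Gm43302 below.

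The libraries held summed values of 56.4 to 79.4 M in the endothelial table and 17.3 to 18.6 M counts in the EO771 table. The low values of the endothelial table pile up in steps of 3.65 to 3.76, so 1 unit of it is not 1 fragment, and levels were not compared between the tables. Endothelial markers summed to 2204 to 2960 CPM, counts scaled to the library total, in all 12 sorted libraries. High endothelial markers (5 genes) summed to 970.2 to 1323 CPM in HEC normal, 2215 to 3049 in HEC tumour and at most 1.19 in BECs. Ccl21a was at or under 3 deposited units in both HEC groups, and Madcam1 in HEC normal. Madcam1 averaged 0.0856 CPM in HEC tumour, so the HEC sums came from Glycam1, Chst4 and Fut7. A pair of HEC libraries stood apart in single markers: Chst4 had 0.0596 CPM in HEC normal replicate 2 and 291 and 297 in the other two, and Fut7 had 221 CPM in HEC tumour replicate 3 and 1021 and 1011 in the other two. Markers of other cells moved with the groups. Myeloid markers (6 genes) summed to 1490 to 2002 CPM in BEC tumour, 107 to 128 in BEC normal, 484 to 509 in HEC normal and 355 to 374 in HEC tumour, almost all of it Cd68 in the HEC groups. Pericyte and fibroblast markers (7 genes) summed to 824 to 833 CPM in BEC normal, 77.4 to 109 in BEC tumour, 25.2 to 26.3 in HEC normal and 10.7 to 12 in HEC tumour. Most of the BEC normal sum was Acta2, which averaged 622 CPM there and 48.7 in BEC tumour. Dcn alone of these genes was higher in BEC tumour than in BEC normal, with means of 7.16 and 2.63 CPM. Epithelial markers (5 genes), which EO771 cells express, summed to 7.91, 11 and 71.6 CPM in BEC tumour replicates 1 to 3, so that replicate 3 stood apart, and to at most 3.1 in the other endothelial groups. Leukocyte markers (4 genes) summed to 69.7 to 109.8 CPM in BEC tumour and at most 6.01 in the other groups. B cell markers (4 genes) summed to 2.68 to 3.73 CPM in BEC tumour and at most 0.925 in the other groups. Lymphatic endothelial markers (4 genes) summed to 341 to 362 CPM in BEC normal, 200.4 to 221 in BEC tumour, 282 to 338 in HEC normal and 349.6 to 360 in HEC tumour. Of these, Prox1 stayed at or under 0.617 CPM. The part of the B cell and lymphatic markers in the differences below was not tested. In bulk samples, fewer cells of a type and less RNA per cell cannot be told apart.

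Per kilobase of exon, the scale used here to compare levels between members, Gbp3, Gbp2 and Gbp9 were the 3 highest members in every endothelial group. In HEC normal the mean normalised expected count per kb was 3962 ± 219 for Gbp3, 2852 ± 117 for Gbp2 and 964 ± 41.3 for Gbp9 (SD, n = 3). They were followed by Gbp7 at 599 ± 21.1 and Gbp6 at 341 ± 18.7, while Gbp5 (236 ± 19.9) and Gbp10 (227 ± 19.5) overlapped. Gbp4 stood at 165 ± 5.70, Gbp8 at 39.2 ± 9.41 and Gbp11 at 6.19 ± 2.80. In BEC normal the order was the same down to Gbp6, and Gbp6 (157 ± 27.7) and Gbp4 (150.3 ± 22.9) overlapped. BEC tumour was the group in which Gbp2 (1519 ± 65.8) stood above Gbp3 (1048 ± 67.2), with no overlap between their libraries. In HEC tumour the libraries of Gbp5 (36.9 ± 8.16), Gbp8 (30.1 ± 10.2) and Gbp10 (20.7 ± 5.36) overlapped from each to the next. Summed over the 10 members, the level per kb was 9392 ± 410 in HEC normal, 5813 ± 359 in BEC normal, 3752 ± 212 in BEC tumour and 3421 ± 115 in HEC tumour. Gbp11 was listed at 0 in all BEC normal libraries and in 2 of 3 BEC tumour libraries, and between 8.85 and 25.4 normalised expected counts in the HEC libraries. It passed no filter and was not tested.

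**Figure D1:**
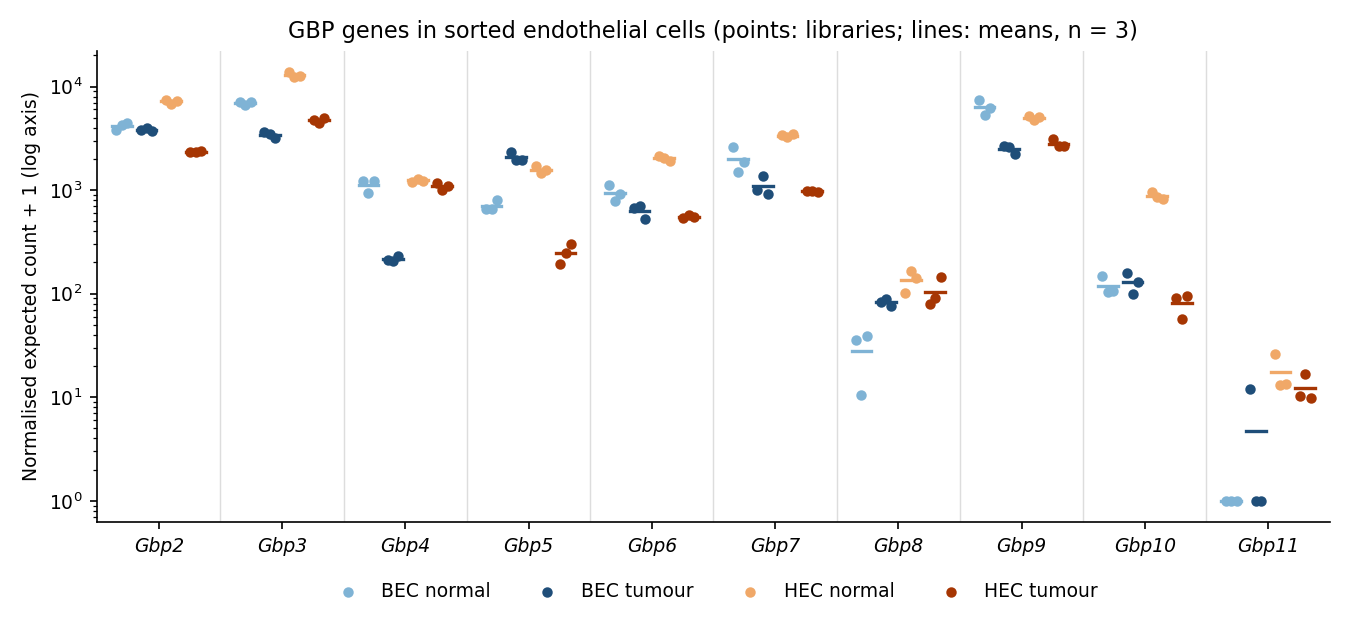
Normalised expected count plus 1 (log axis) of each member in the 12 endothelial libraries, with points for libraries and lines for means of 3. Gbp10 in HEC normal lies between 810.3 and 959, against 56.2 to 158 in the other 3 groups, and Gbp4 in BEC tumour lies between 204 and 229, against 928 to 1288 in the others.

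The first comparison asks how HECs of tumour-bearing mice differ from HECs of normal nodes. No member was higher and 6 of the 9 tested were lower at an adjusted p under 0.05 and a fold over 2, against 4.58% of all 18511 genes called higher and 3.21% called lower. The median log2 fold change of the members was -1.62, against 0.02 over all genes tested. At an unadjusted p under 0.05 the DESeq2 counts were 0 higher and 7 lower, and edgeR called 0 and 6. The counts of members called, 0 and 6, were as large without HEC normal replicate 2 and without HEC tumour replicate 3. Myeloid markers (355 to 374 CPM against 484 to 509) and pericyte and fibroblast markers (10.7 to 12 against 25.2 to 26.3) were also lower in HEC tumour, and high endothelial markers were higher (2215 to 3049 against 970.2 to 1323). Their part was not tested.

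Gbp2 had 7420, 6847 and 7258 normalised expected counts in HEC normal replicates 1 to 3 and 2315, 2334 and 2374 in HEC tumour. The HEC tumour libraries lay closely together and far below every HEC normal library, a log2 fold change of -1.62 ± 0.07 (SE, DESeq2 adjusted p 2.98e-102). Gbp5 had 1708, 1445 and 1552 in HEC normal and 192, 244 and 300.0 in HEC tumour. It fell 6.39-fold, the largest fall among the members of chromosome 3 (log2 fold change -2.68 ± 0.17, adjusted p 1.45e-54). Gbp3 had 13754, 12419 and 12634 in HEC normal and 4775, 4435 and 4923 in HEC tumour, 2.75-fold lower (-1.46 ± 0.07, adjusted p 2.04e-87). Gbp7 had 3415, 3228 and 3449 in HEC normal and 986, 979.9 and 959.7 in HEC tumour, 3.45-fold lower (-1.79 ± 0.20, adjusted p 4.93e-17). All 4 members on chromosome 3 were thus called lower.

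The chromosome 5 members were less uniform. Gbp10 had 959, 866 and 810.3 normalised expected counts in HEC normal and 90.0, 56.2 and 94.1 in HEC tumour, 11-fold lower (-3.46 ± 0.26, adjusted p 3.54e-37). Gbp6 had 2147, 2025 and 1925 in HEC normal and 538, 572 and 550.1 in HEC tumour, 3.67-fold lower (-1.88 ± 0.15, adjusted p 1.18e-32). The sum of Gbp6, Gbp10 and the overlapping Gm43302 was 3392 ± 189 in HEC normal and 1011 ± 51.3 in HEC tumour, so it was also lower with no overlap, while Gm43302 alone differed little (481 ± 11.5 and 377 ± 45.1, adjusted p 0.128). Gbp9 had 5166, 4750 and 5043 in HEC normal and 3094, 2666 and 2682 in HEC tumour, and its difference of -0.83 ± 0.13 (adjusted p 6.66e-10) was short of 2-fold. Gbp4 stood at 1240 ± 42.7 normalised expected counts in HEC normal against 1084 ± 84.3 in HEC tumour. Its difference of -0.19 ± 0.13 did not pass (adjusted p 0.262, 95% interval -0.45 to 0.06). The libraries still did not overlap, at 1206 to 1288 against 997 to 1165. Gbp8 was variable, with 99.4, 163 and 142 against 78.5, 88.8 and 144, and did not pass (adjusted p 0.557).

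The second comparison asks the same of BECs, between primary tumours and the normal fat pad. Here 2 of 9 members were higher and 3 lower, against 12.4% of all genes called higher and 10.8% called lower. The median over the members was -0.56, against 0.01 over all genes. These groups differ most in their other cells: with BEC tumour, myeloid, leukocyte and epithelial markers were higher and pericyte and fibroblast markers lower (values above), and Lyz2, a lysozyme of macrophages and neutrophils, had 567 to 919 CPM in BEC tumour and 2.74 to 6.38 in BEC normal. Without BEC tumour replicate 3, the library with the most epithelial signal, 2 members were called higher and 2 lower. The part of these cells in the differences below was not tested.

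Gbp4 had 1224, 928 and 1226 normalised expected counts in BEC normal and 208, 204 and 229 in BEC tumour. This 5.28-fold fall was the largest in BECs (-2.40 ± 0.14, adjusted p 4.23e-65). Gbp9 had 7343, 5298 and 6243 in BEC normal and 2662, 2577 and 2252 in BEC tumour, 2.52-fold lower (-1.33 ± 0.13, adjusted p 1.99e-25). Gbp3 had 7111, 6696 and 7053 against 3624, 3457 and 3189, with no overlap (-1.02 ± 0.07, adjusted p 2.25e-43). Its fold of 2.03 stood at the threshold, and the call was lost with edgeR and with TMM factors (both -0.99). Gbp5 went the other way, with 662, 649.6 and 807 in BEC normal and 2317, 1967 and 1949 in BEC tumour, 2.94-fold higher (1.56 ± 0.16, adjusted p 6.93e-21). Gbp8 had 34.4, 9.41 and 37.6 in BEC normal and 81.6, 88.0 and 75.0 in BEC tumour, 2.98-fold higher at a low level (1.57 ± 0.47, adjusted p 0.00184).

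The other members in BECs were short of the thresholds. Gbp7 ran from 1482 to 2616 in BEC normal and from 907 to 1372 in BEC tumour (-0.85 ± 0.20, adjusted p 8.4e-05). Gbp6 ran from 784 to 1111 in BEC normal and from 529 to 704 in BEC tumour (-0.56 ± 0.15, adjusted p 0.00064). Gbp2 overlapped between the groups, at 4179 ± 339 and 3822 ± 166 (adjusted p 0.131), and so did Gbp10 at 118 ± 25.0 and 128 ± 30.2 (adjusted p 0.757). The sum of Gbp6, Gbp10 and Gm43302 was 1713 ± 293 in BEC normal and 1189 ± 146 in BEC tumour.

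Whether the difference with tumour was itself unlike in HECs and BECs was tested as an interaction over the 12 libraries, the log2 change in HECs less that in BECs. It was called in 1 member upwards and 5 downwards, against 11.1% of all genes upwards and 12.1% downwards. Gbp5 had an interaction of -4.23 ± 0.23 (adjusted p 1.66e-71), being lower in HEC tumour and higher in BEC tumour than in the normal cells. Gbp10 followed at -3.57 ± 0.37 (adjusted p 2.19e-20) and Gbp2 at -1.49 ± 0.10 (adjusted p 2.36e-44), both lower with tumour in HECs and not past the test in BECs. Gbp4 was the member with a positive call, 2.21 ± 0.19 (adjusted p 1.67e-29), lower with tumour in BECs and not past the test in HECs. Gbp6 (-1.31 ± 0.22) and Gbp8 (-1.95 ± 0.64) were also called, while Gbp3 (-0.43 ± 0.10), Gbp7 (-0.93 ± 0.29) and Gbp9 (0.51 ± 0.18) differed by less than 2-fold. Gbp6 and Gbp10 share sequence, and the interaction of their sum with Gm43302 was not tested. Other markers moved with this contrast too. Myeloid, leukocyte and epithelial markers were more abundant with tumour in BECs and not in HECs, and pericyte and fibroblast markers were lower with tumour in both, by more in BECs. Their part was not tested, and without BEC tumour replicate 3 the interaction was called in 1 member upwards and 6 downwards.

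**Figure D2:**
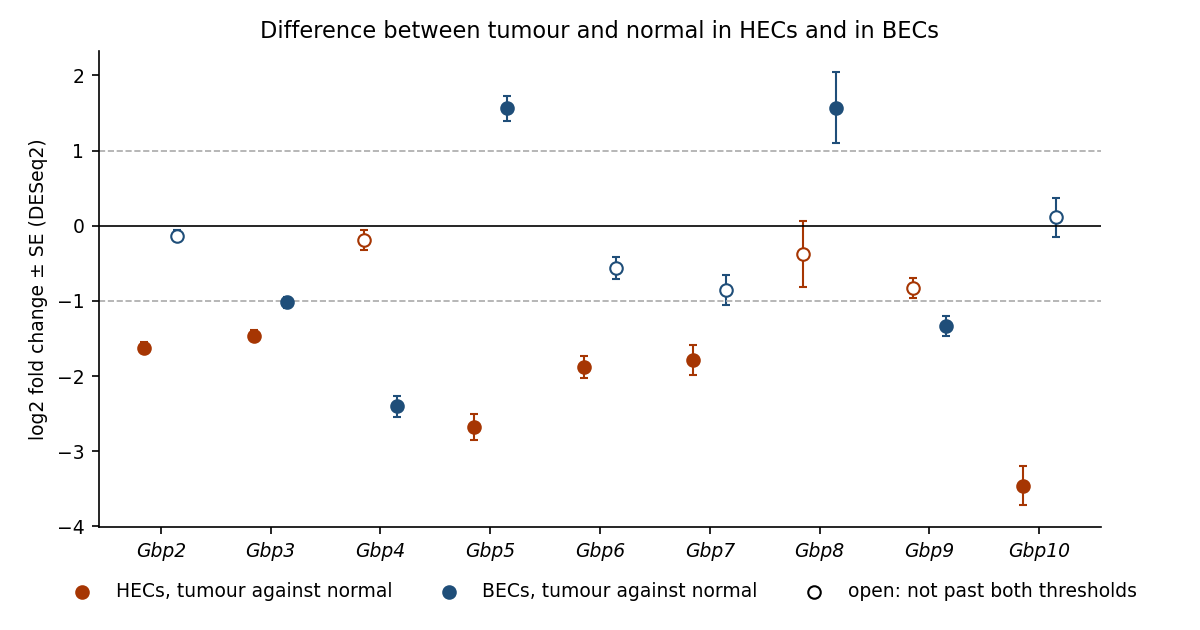
Log2 fold change ± SE (DESeq2) between tumour and normal for the 9 tested members, in HECs and in BECs, with dashed lines at 2-fold and open points for members not past both thresholds. Gbp5 lies at -2.68 in HECs and 1.56 in BECs, and Gbp4 at -0.19 in HECs and -2.40 in BECs.

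HECs and BECs were also compared within each condition. In these comparisons the cell type cannot be told apart from the organ, since HECs came from lymph nodes and BECs from the fat pad or the tumour. The HEC normal and BEC normal libraries are those already used above, so these values are not independent of them. In normal tissue 4 of 9 members were higher in HECs and none lower, against 17.1% of all genes called higher and 15.1% called lower, and the median over the members was 0.90, against 0.00. At an unadjusted p under 0.05 DESeq2 had 1 member lower, and edgeR called none. Gbp10 was 7.40-fold higher in HECs, at 879 ± 75.3 against 118 ± 25.0 (2.89 ± 0.26, adjusted p 3.09e-28). The sum of Gbp6, Gbp10 and Gm43302 was 3392 ± 189 in HEC normal and 1713 ± 293 in BEC normal, a smaller difference. Gbp8 (2.30 ± 0.46), Gbp5 (1.15 ± 0.16) and Gbp6 (1.12 ± 0.15) were higher as well. Without BEC normal replicate 2 the value of Gbp6 was 1.00 and the call was lost, and without BEC normal replicate 1 that of Gbp7 rose from 0.76 to 1.01. Gbp3 and Gbp2 were higher by less than 2-fold (0.90 ± 0.07 and 0.78 ± 0.07), Gbp9 was lower by less than 2-fold (-0.34 ± 0.12, adjusted p 0.0124), and Gbp4 did not pass (0.14 ± 0.13, adjusted p 0.364). Pericyte and fibroblast markers were higher in BEC normal and myeloid markers, mostly Cd68, higher in HEC normal, and their part was not tested.

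In the tumour setting 1 member was higher and 1 lower in HECs than in BECs, against 11.2% of all genes called higher and 10.7% called lower. The median over the members was -0.17, against 0.01. Gbp4 was 5.07-fold higher in HEC tumour, at 1084 ± 84.3 against 214 ± 13.7 (2.34 ± 0.14, adjusted p 8.42e-62). Gbp5 was 8.47-fold lower, at 245 ± 54.2 against 2078 ± 207 (-3.08 ± 0.17, adjusted p 2.22e-73). Gbp2 (-0.71 ± 0.07), Gbp10 (-0.68 ± 0.27) and Gbp3 (0.46 ± 0.07) were short of 2-fold, and Gbp6, Gbp7, Gbp8 and Gbp9 did not pass. The myeloid markers listed above were 1490 to 2002 CPM in BEC tumour and 355 to 374 in HEC tumour. Leukocyte, epithelial and pericyte and fibroblast markers were also higher in BEC tumour, and the part of all these in the values was not tested.

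Gbp2b, the family gene outside the 10, had 282, 187 and 181 normalised expected counts in BEC normal and 3.71, 6.77 and 6.10 in BEC tumour. HEC normal listed it at 0 in replicates 1 and 2 and at 35.4 in replicate 3. Against BEC normal it was lower in BEC tumour (-5.29 ± 1.24, adjusted p 6.08e-05) and in HEC normal (-4.20 ± 1.21, adjusted p 0.00115).

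The last comparison asks what 12-HETE does to EO771 cells. None of the 8 tested members was higher and 7 were lower, against 2.38% of all 11602 genes called higher and 7.79% called lower. The median over the members was -4.86, against 0.00 over all genes. No member was higher at an unadjusted p under 0.05 or by edgeR, which called the same number lower. Epithelial markers summed to 2867 to 3781 CPM with vehicle and 1929 to 1985 with 12-HETE. Pericyte and fibroblast markers summed to 390.5 to 614 and 998 to 1037, almost all of it Dcn (mean 509.6 and 1008). The part of this shift was not tested. Leukocyte markers stayed at or under 1.24 CPM in all 6 libraries.

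Gbp2 had 628, 747 and 656 counts in the 3 vehicle libraries and 13 in each of the 12-HETE libraries. It was 51.5-fold lower with 12-HETE (-5.69 ± 0.27, adjusted p 1.84e-98). Gbp7 had 498, 333 and 798 counts with vehicle and 29, 25 and 22 with 12-HETE (-4.42 ± 0.35, adjusted p 2.18e-35). Gbp5 had 91, 75 and 106 counts with vehicle and 1, 0 and 0 with 12-HETE. With 272 counts against 1, the normalised ratio was 269, and its 95% exact counting interval ran from 47.9 to 10679, so the size of this fall is poorly fixed while its direction is not (adjusted p 7.92e-10). Such intervals cover counting error only, because without molecular identifiers several reads can stem from 1 molecule.

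Gbp3 did not follow the members around it. It had 5663, 5896 and 7320 counts with vehicle and 5836, 5655 and 5867 with 12-HETE, and the groups overlapped. The log2 fold change was -0.11 ± 0.13 (adjusted p 0.515), and its 95% interval of -0.37 to 0.15 leaves out a fold of 2 in either direction. Vehicle replicate 3 was the high library, and without it the value was 0.04. Per kb, Gbp3 averaged 1912 ± 331 with vehicle, far above Gbp2 at 266 ± 18.4 and Gbp7 at 96.7 ± 45.1. It thus made up 81.3% ± 0.495 of the summed level of the 10 members with vehicle and 99.2% ± 0.060 with 12-HETE (SD, n = 3). In the endothelial groups its share ran from 27.9% in BEC tumour to 42.2% in both HEC groups.

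The chromosome 5 members were low with vehicle and lower with 12-HETE. Gbp9 had 116, 112 and 180 counts with vehicle and 10, 6 and 3 with 12-HETE, 21.3-fold lower (-4.42 ± 0.46, adjusted p 1.95e-20). Gbp4 had 73, 63 and 60 against 7, 5 and 4, 12.1-fold lower (-3.60 ± 0.47, adjusted p 3.87e-13). Gbp6 had 54, 69 and 76 against 2, 1 and 2, 39.5-fold lower (-5.30 ± 0.72, adjusted p 4.43e-12). No vehicle library of these 3 genes overlapped a 12-HETE library. Gbp10 had 52, 39 and 73 counts against 0, 0 and 3, a ratio of 54.1 with a counting interval of 18.2 to 265 (adjusted p 9.54e-09). The sum of Gbp6 and Gbp10 with Gm43302, which had no count in EO771, was 120.2 ± 28.0 normalised counts with vehicle and 2.65 ± 2.03 with 12-HETE. Gbp8 and Gbp11 were below the filter and untested, with 32 counts against 14 and 4 counts against 0 over the 3 libraries of each group. The non-member Gbp2b was also below it, with 7 counts with vehicle and 21 with 12-HETE.

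**Figure D3:**
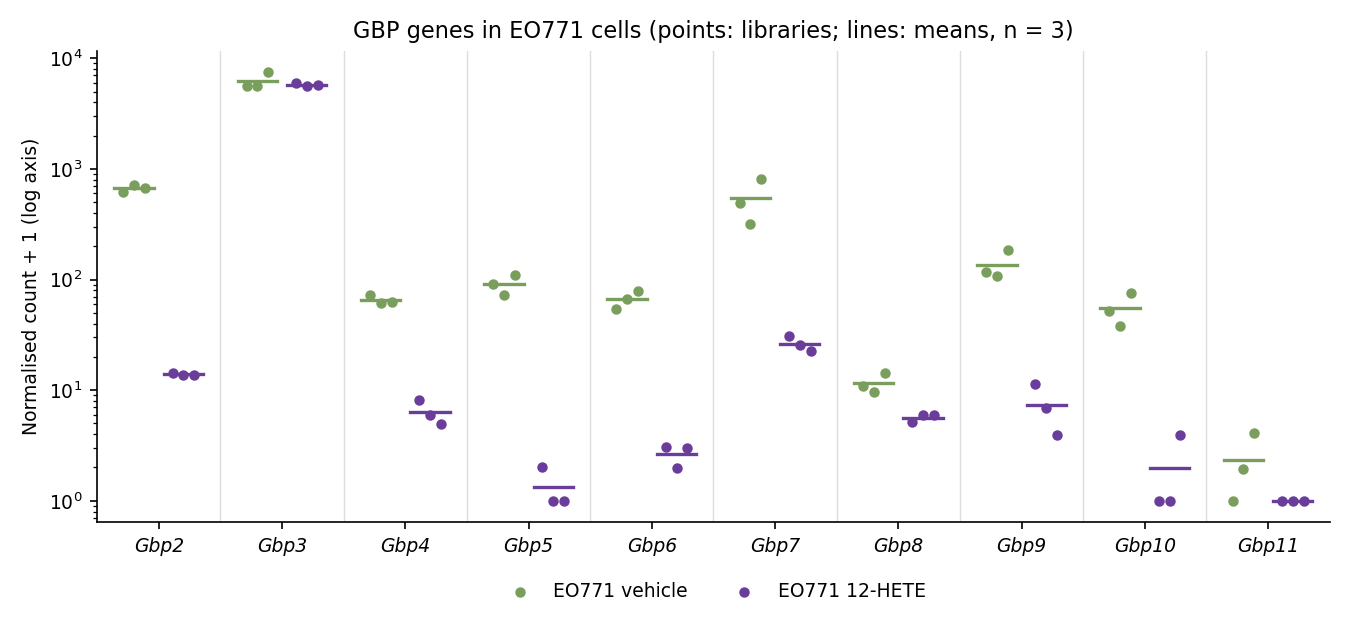
Normalised count plus 1 (log axis) of each member in the 6 EO771 libraries, with points for libraries and lines for means of 3. Gbp3 lies between 5573 and 7493 in all libraries, while Gbp2 lies between 621 and 714 with vehicle and between 12.8 and 13.4 with 12-HETE.

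**Figure D4:**
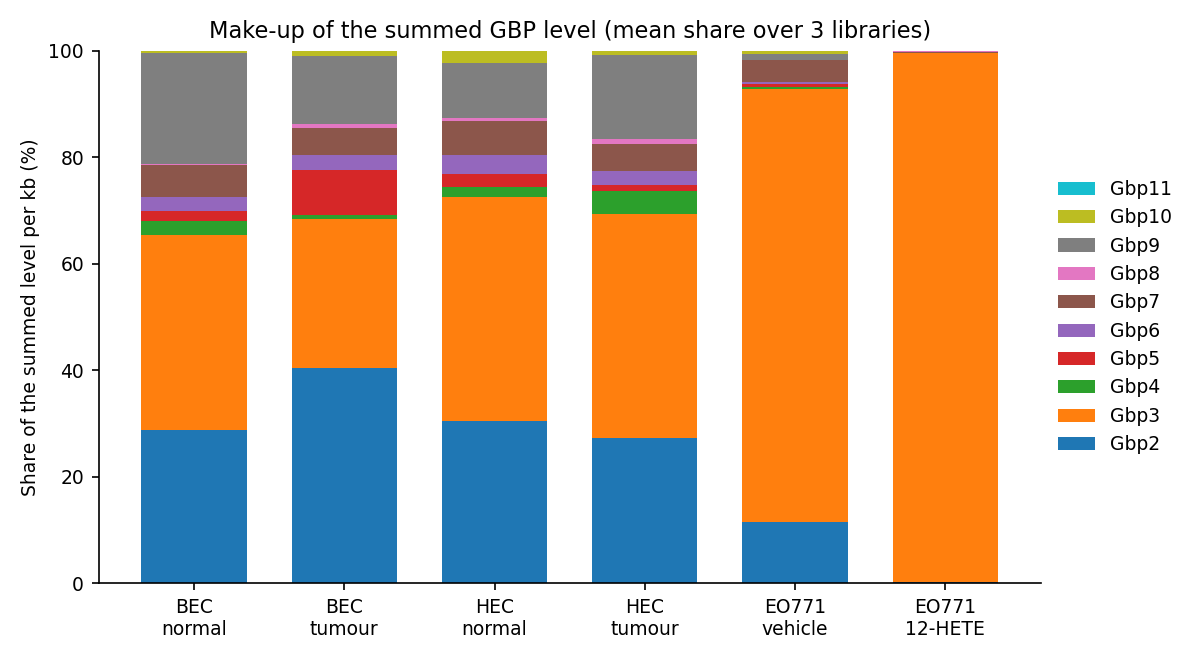
Mean share over 3 libraries (%) that each member takes of the summed level per kb in the 6 groups, stacked from Gbp2 at the bottom to Gbp11. Gbp3 takes 99.2% in EO771 12-HETE and between 27.9% and 42.2% in the endothelial groups, and Gbp5 takes 8.35% in BEC tumour and at most 2.51% in the other groups.

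The genes that act with the GBPs were described by lists, read against the same background shares. The 10 IRGs include Irgm1, Irgm2 and Igtp, the regulators that guard host membranes, and effectors such as Iigp1. In HEC tumour against HEC normal 7 of them were lower, with a median of -1.70. None was higher there, also at an unadjusted p under 0.05 and by edgeR. The 2 largest falls there were those of Gm12250 (-3.22) and Gm4951 (-3.01) and the smallest called were those of Tgtp1 (-1.55) and Igtp (-1.68). In BECs 7 were lower and 1 higher with tumour, with a median of -1.73. Gm4951 (-3.32) and Tgtp2 (-2.42) fell most and Gm12250 (-1.35) and Irgm2 (-1.70) least, and Gm5431 rose by 1.94. Irgm1 differed by -0.75 ± 0.07 in HECs and -0.78 ± 0.07 in BECs, short of 2-fold in both. The interaction was called in 2 IRGs, both downwards (Gm5431 and Gm12250), with a list median of 0.01.

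In EO771 all 9 IRGs in the table were lower with 12-HETE, with a median of -5.22, which stays at -5.22 with Gm4951 at its bound. Gm4951 had 525 counts with vehicle and 0 with 12-HETE, at least 173-fold lower against a floor of 3 counts over the group. Iigp1 had 3049 counts against 4, a ratio of 755 with a counting interval of 295 to 2773. Irgm2 (-4.46) and Igtp (-5.22) fell too, and the smallest falls were those of Ifi47 (-1.97) and Irgm1 (-3.07). Between normal HECs and BECs 1 IRG was higher in HECs (Gm5431, 2.12) and 1 lower (Tgtp2, -1.46), and in the tumour setting 1 was lower (Gm12250, -1.82). The endothelial values of Gm12250 and Gm5431 were low, at most 265 and 94.6 normalised expected counts in any library.

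**Figure D5:**
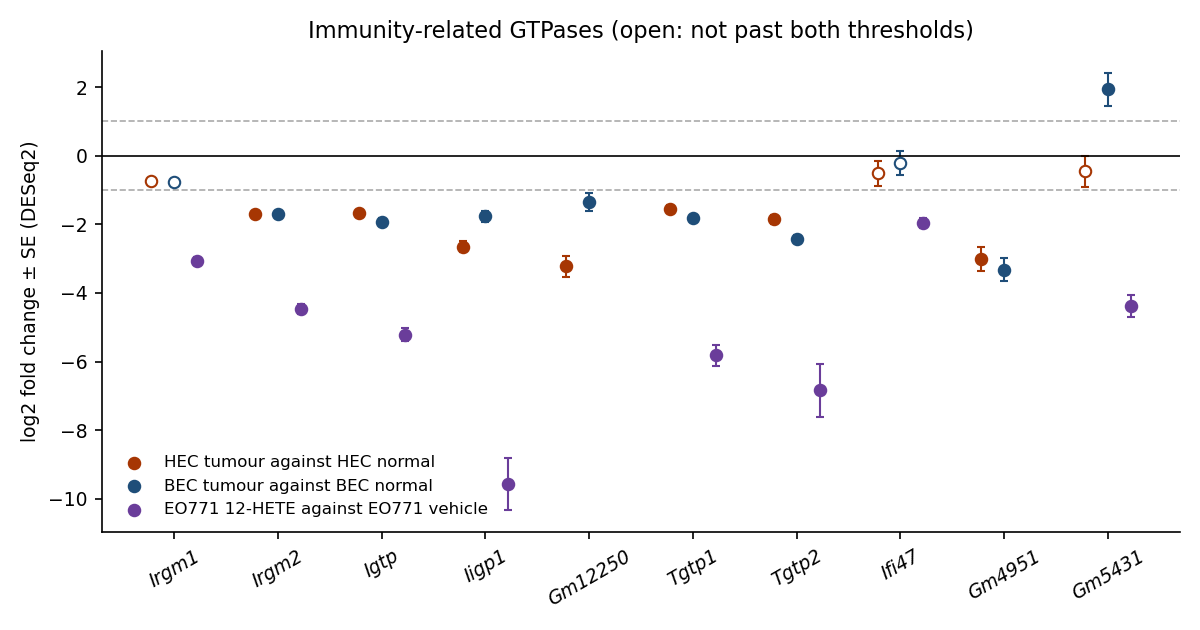
Log2 fold change ± SE (DESeq2) of the 10 immunity-related GTPases in HECs and BECs (tumour against normal) and in EO771 (12-HETE against vehicle), with dashed lines at 2-fold and open points for genes not past both thresholds. Gm12250 was not in the EO771 table, and Gm4951 is not drawn there because no 12-HETE library held a count. Irgm2 lies at -1.71 in HECs, -1.70 in BECs and -4.46 in EO771.

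Among 14 interferon receptors and signalling genes, 4 were lower and none higher in EO771 with 12-HETE by DESeq2 and by edgeR, with 8 lower and 1 higher at an unadjusted p under 0.05. The genes called were Stat2 (-4.34), Irf9 (-3.51), Irf1 (-1.44) and Socs3 (-1.08). Stat2 and Irf9 encode parts of the complex that binds the ISRE. Ifngr1, a chain of the interferon-γ receptor, differed by -0.06 ± 0.11 (adjusted p 0.685). With tumour, HECs had less Stat2 (-2.20) and Irf9 (-1.13), and no gene was higher. BECs had less Socs3 (-1.10) with tumour. Irf1 did not pass in either (-0.34 and 0.60). Normal HECs had less Ifnar1 (-1.37) and Ifngr1 (-1.14) and more Irf8 (2.14) than normal BECs. In the tumour setting Ifnar1 (-1.03) was lower and Socs1 (1.24) higher in HECs. The interaction was called downwards for Irf8 (-1.59) and Stat2 (-1.41). Of the 5 interferon genes listed, Ifng had no value in any BEC, HEC normal or EO771 library and at most 2.96 in HEC tumour, and Ifnb1 alone was tested, in the endothelial comparisons, with no call by DESeq2 or edgeR and an unadjusted p under 0.05 in 1 of them (HEC tumour against HEC normal, lower).

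Among 9 inflammasome and pyroptosis genes, which act downstream of GBPs, 3 were higher in BECs with tumour: Casp1 (3.54), Il18 (2.30) and Casp4 (2.13), the last of which encodes the caspase that senses cytosolic lipopolysaccharide. In HEC tumour none was called against HEC normal by DESeq2 or edgeR, with 3 lower at an unadjusted p under 0.05, and Casp4 differed by -0.80 ± 0.08. Casp4 was 3.18 higher on the log2 scale in normal HECs than in normal BECs. Casp1, Il18 and Pycard were lower in HEC tumour than in BEC tumour, where Pycard was at 0 in every HEC tumour library and at 158 ± 38.9 in BEC tumour. The interaction was called downwards in 4 of them, from Casp1 (-4.36) and Casp4 (-2.93) to Il18 (-1.62) and Nlrp3 (-1.26). Myeloid markers moved with these values as with those of Gbp5, and their part was not tested. In EO771 Casp4 (-2.01) and Gsdmd (-1.42), the pore-forming protein of pyroptosis, were lower with 12-HETE.

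None of the 6 prenylation enzymes was called by DESeq2 in any comparison, and edgeR called 1, Zmpste24, which had 0.99 by DESeq2, higher in BECs with tumour. At an unadjusted p under 0.05 between 1 and 5 of them differed in each comparison, by less than 2-fold (0.88 for Zmpste24 with 12-HETE). Of 10 genes of Atg8 conjugation and vacuole ubiquitination, Trim21 (-2.41), Rnf213 (-2.01) and Sqstm1 (-1.49) were lower in EO771 with 12-HETE. Atg3 (-1.23), Atg16l1 (-1.19) and Atg5 (-1.03) were lower in normal HECs than in normal BECs, and the interaction was called upwards for Atg3 (1.30) and Atg16l1 (1.15).

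The genes whose levels followed the mean of the 9 tested members most closely over the 12 endothelial libraries were Trim34a (Pearson r 0.976), Ifit3 (0.974), Cmpk2 (0.968), Ifit3b (0.967) and Ifi208 (0.967), ranked among 13282 genes with a mean of at least 100. Over the 6 EO771 libraries they were Hspa9 (0.998), Pdcd1lg2 (0.998), Hmga2 (0.997), 1110002E22Rik (0.997) and Parp14 (0.997) among 9632. These points fall into the groups of the design and share their libraries, so r describes mainly the order of the groups, and with 2 groups in EO771 any gene with a large and even difference ranks high.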

How the data were processed

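Total RNA of sorted BECs and HECs and of EO771 cells was sequenced. Per the study's methods, STAR alignment to GRCm38 was followed by featureCounts for fragments of each gene. The labels and the methods name different library kits. The endothelial table that the authors deposited was taken to hold expected counts per Ensembl gene, being whole numbers with stepped low values. The deposited EO771 table holds raw counts per gene symbol. 0 per-sample columns were left unused.

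Here DESeq2 1.42.0 in R 4.3.3 (two-sided Wald test, Benjamini-Hochberg adjustment over all lines with a mean of at least 10) was fitted to the 12 endothelial and the 6 EO771 libraries separately, with group as the only term. A gene was called at adjusted p under 0.05 and fold over 2. Levels are DESeq2 normalised values, and log2 fold changes carry their SE. edgeR 4.0.16, other scaling, no filter, only the compared groups, division by the step, leaving out a library and the replicate block were the alternatives. The scripts were tested on simulated data. Gene models were GENCODE M21 and promoters RefSeq (GRCm38.p6). Depth is the total per library, and counting error limits the members with few counts.

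All 10 members were named in every comparison, with Gbp2b as a non-member. From the partner lists the rule named the 2 largest and 2 smallest called changes, and Ifng, Irf1, Irgm1, Irgm2, Igtp and Casp4. For likeness it named the 5 genes with the largest r to the members' mean z-score, on log2(value + 1). 1 further gene that the rule names is not reported here. The members and lists were chosen with earlier results of these data known. In EO771, the deviations of libraries with the same number correlated at 0.111, 0.173 and 0.328 over 9635 genes. Libraries with unlike numbers were not compared in this way, so these values cannot decide whether the numbers pair samples. The numbers may pair the EO771 samples, though no label says so. The replicate block changed no call of a member there. No pair of replicates held identical values.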

Additional observations from a re-analysis of the deposited data

Results flagged for a closer look

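The difference with tumour was unlike in HECs and BECs for 6 members, by the interaction test of DESeq2 over the 12 endothelial libraries (log2 change in HECs less that in BECs). Of all genes tested, 11.1% were called upwards and 12.1% downwards in this test. The values were -4.23 for Gbp5, -3.57 for Gbp10, -1.95 for Gbp8, -1.49 for Gbp2 and -1.31 for Gbp6, and 2.21 for Gbp4. Gbp5 was lower with tumour in all HEC libraries and higher in all BEC libraries, with no overlap in either. Gbp8 rests on low values, down to 9.41 normalised expected counts in BEC normal replicate 2, and Gbp6 and Gbp10 share sequence. Myeloid, leukocyte and epithelial markers, which were higher with tumour in BECs and not in HECs, and pericyte and fibroblast markers, which were lower with tumour by more in BECs than in HECs, moved with this contrast. Their part was not tested.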

How the results depend on the processing

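The numbers of members called higher and lower in the 6 comparisons moved by at most 1 under every alternative run, and those for the 12-HETE comparison (0 and 7) and for HEC tumour against HEC normal (0 and 6) did not move. The number of all genes called higher with 12-HETE ran from 226 to 511 when leaving out 1 library, the latter without vehicle replicate 3. Calls of single members moved at the threshold of 2-fold. For BEC tumour against BEC normal, Gbp3 was -0.99 with edgeR and with TMM factors, -0.98 with only the groups compared and -0.97 without BEC tumour replicate 3, and Gbp7 passed without BEC normal replicate 2 (-1.03) or BEC tumour replicate 2 (-1.05). The interaction of Gbp7 passed without BEC normal replicate 1 (-1.18) or BEC tumour replicate 3 (-1.06). The sign turned for 3 values that had passed no threshold: Gbp3 with 12-HETE (-0.19 to 0.04, the latter without vehicle replicate 3), Gbp7 between HEC tumour and BEC tumour (-0.29 to 0.02, the latter without BEC tumour replicate 2) and Gbp10 between BEC tumour and BEC normal (-0.06 to 0.30, the former without BEC tumour replicate 1). With the replicate block, the counts of members called were unchanged in all comparisons (6 lower in HEC tumour against HEC normal, 7 lower with 12-HETE). In the endothelial libraries same-numbered samples correlated between -0.015 and 0.126, a range that takes in the smallest EO771 value, 0.111. These correlations do not decide on pairing, and no label says that the numbers pair the endothelial samples, so they were not taken to.

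Without the filter, Gbp11 was tested and called higher in normal HECs (adjusted p 0.00197) against BECs that listed it at 0, and Gbp8 with 12-HETE was not called (-1.18, adjusted p 0.172). The low values of Gbp8 and Gbp11 limit what can be said of them.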
